A study of Mus musculus with 22 samples.

Results

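The microarray used for these macrophages carries probes for RefSeq transcripts that encode no protein, marked by identifiers that begin with NR_, and these probes are described here. Of 1400 such probes on the array, 1048 gave a signal well above background on at least 3 of the 22 arrays. These 1048 probes belonged to 885 named genes, with 64 probes whose transcript had no symbol in the RefSeq table used. They made up a small part of the 46263 probes of all kinds that passed the same filter, among which 23251 were for protein-coding RefSeq transcripts. By RefSeq's classification, 758 probes were for long non-coding RNAs (lncRNAs), 193 for transcribed pseudogenes, 18 for non-coding transcripts of protein-coding genes, 4 for antisense RNAs, 4 for small nuclear RNAs, 2 for small nucleolar RNAs and 2 for ribosomal RNAs.

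Bone marrow-derived macrophages (BMDM) were grown with the growth factor M-CSF from marrow of C57BL/6 mice, labelled as males of 10 to 14 weeks. The mice were wild type (wt), deficient in the kinase MK2 (MK2-/-) or deficient in both MK2 and its relative MK3 (MK2/3-/-). Cells were kept in medium or given 100 ng/ml lipopolysaccharide (LPS) for 360 min. There were 4 wt arrays in medium and 3 with LPS, 4 and 4 MK2-/- arrays, and 3 and 4 MK2/3-/- arrays. No MK3-/- cells were among these samples, so the deletion of MK3 was seen only on top of that of MK2.

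LPS is a bacterial cell wall component that macrophages sense through the receptor TLR4, which switches on NF-kappaB and the MAP kinases, among them p38. MK2 and MK3 are kinases activated by p38, and MK2 is known for controlling the stability and translation of cytokine mRNAs through RNA-binding proteins such as tristetraprolin. Non-coding transcripts act in several ways: some host small RNAs in their introns, some, such as Xist, Kcnq1ot1 and Airn, silence genes on the chromosome they come from, some, such as Neat1, build nuclear bodies, and many lie beside or opposite coding genes and have no known role.

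The targeted genes followed the labels. The Mapkapk2 probe, for the gene of MK2, read 11.90 ± 0.77 in wt cells in medium and 8.88 ± 0.13 and 8.44 ± 0.08 in MK2-/- and MK2/3-/- cells (mean log2 signal ± SD), and the Mapkapk3 probe fell from 13.13 ± 0.26 in wt to 11.16 ± 0.23 in MK2/3-/- cells. All 7 macrophage markers measured were well above background on all 22 arrays, as were 4 of 6 neutrophil, 1 of 3 B cell, 2 of 3 T cell, 2 of 4 fibroblast, 1 of 3 mast cell and 2 of 3 dendritic cell markers, while the erythroid marker was above it on none. The log2 of the summed fibroblast marker signal ranged from 8.70 to 16.6 over the medium arrays and from 9.82 to 15.8 over the LPS arrays, with overlapping groups. The log2 of the summed T cell markers was 11.8 to 12.1 in wt medium and 12.4 to 12.5 in wt LPS arrays, did not overlap there, and overlapped between medium and LPS in both mutants, and the sum of the macrophage markers was 19.1 to 19.5 in wt medium and 18.8 to 18.9 with LPS. The genotypes differed too: T cell sums in medium were 12.3 to 13.2 in MK2-/- and 12.7 to 13.2 in MK2/3-/- cells, all above wt, and with LPS 12.4 to 13.1 and 12.7 to 13.5, the latter above wt. B cell sums with LPS were 6.80 to 7.53 in MK2-/- and 7.65 to 7.99 in MK2/3-/- cells. The part of these markers in the results below was not tested. In bulk RNA, fewer cells of a type and less RNA per cell cannot be told apart. Between 47.0% and 75.2% of the NR_ probes were well above background on an array. Each genotype was hybridised on a slide of its own, so slide and genotype cannot be told apart in a comparison of genotypes, whereas both conditions of a genotype were on the same slide. Replicate 3 of MK2-/- with LPS stood apart in quality, with 2927 spots marked as outliers against 115 to 261 on the other arrays and the highest share of probes above background, and without it 313 members changed with LPS in MK2-/- cells. Replicate 4 of wt in medium stood apart too: its mean over the 100 probes with the largest rise was 8.98 against 6.09 to 6.56 in the other wt medium arrays. Without it 300 members changed with LPS in wt, and the rise of U90926 and Gm9895 in wt was 5.99 and 6.07 in place of the values below. Both MK2-/- arrays of replicate 3 went against their label of male: their Xist probes, described below, were high, and Ddx3y, a gene of the Y chromosome, read 2.01 and 1.99 there against at least 10.09 on every other array. Without these 2 arrays, 332, 293 and 330 probes changed with LPS in wt, MK2-/- and MK2/3-/- cells, against 333, 312 and 326 with them.

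The promoters of genes on which the results turn are printed first, followed by the microRNAs of the host gene Mir22hg. Each window runs from 250 bases before to 50 bases after the RefSeq start of the gene (mouse build GRCm38.p6, 5′ to 3′ on the strand of the gene). U90926, Gm9895, Il1bos and Morrbid are shown because they were among the transcripts that LPS raised most, Gm5086 because it was among those that fell most, and Kcnq1ot1 as an imprinted antisense RNA that fell. Capitals mark a motif that was found.
U90926 promoter, chr5:92215359-92215658, minus strand: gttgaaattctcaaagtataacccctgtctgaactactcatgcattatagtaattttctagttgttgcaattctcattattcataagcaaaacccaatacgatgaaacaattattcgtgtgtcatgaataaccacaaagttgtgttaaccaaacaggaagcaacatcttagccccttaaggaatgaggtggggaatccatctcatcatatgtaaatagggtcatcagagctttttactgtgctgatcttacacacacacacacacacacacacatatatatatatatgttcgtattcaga
Gm9895 promoter, chr19:29067051-29067350, plus strand: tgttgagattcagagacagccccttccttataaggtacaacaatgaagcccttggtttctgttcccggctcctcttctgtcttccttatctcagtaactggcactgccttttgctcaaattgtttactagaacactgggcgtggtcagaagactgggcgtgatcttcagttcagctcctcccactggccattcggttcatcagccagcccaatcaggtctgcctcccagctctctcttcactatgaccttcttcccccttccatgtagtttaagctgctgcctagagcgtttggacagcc
Il1bos promoter, chr2:129369652-129369951, plus strand: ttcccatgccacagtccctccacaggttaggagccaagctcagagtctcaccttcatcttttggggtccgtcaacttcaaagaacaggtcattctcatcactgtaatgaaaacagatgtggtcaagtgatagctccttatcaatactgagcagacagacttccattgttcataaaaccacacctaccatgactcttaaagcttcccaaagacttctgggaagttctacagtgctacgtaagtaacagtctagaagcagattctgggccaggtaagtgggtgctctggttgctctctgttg
Morrbid promoter, chr2:128429302-128429601, minus strand: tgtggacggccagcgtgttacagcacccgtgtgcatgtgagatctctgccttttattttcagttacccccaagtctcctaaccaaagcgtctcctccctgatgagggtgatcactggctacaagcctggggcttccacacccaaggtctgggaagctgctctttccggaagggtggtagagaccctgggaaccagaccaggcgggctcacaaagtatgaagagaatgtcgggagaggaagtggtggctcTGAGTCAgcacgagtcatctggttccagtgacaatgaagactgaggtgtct
Gm5086 promoter, chr13:97559750-97560049, plus strand: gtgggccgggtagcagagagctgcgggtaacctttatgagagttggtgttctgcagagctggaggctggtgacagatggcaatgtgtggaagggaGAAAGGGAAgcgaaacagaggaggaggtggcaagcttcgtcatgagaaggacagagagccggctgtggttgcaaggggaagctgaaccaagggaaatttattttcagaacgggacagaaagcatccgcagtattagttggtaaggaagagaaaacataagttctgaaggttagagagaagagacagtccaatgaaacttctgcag
Kcnq1ot1 promoter, chr7:143296498-143296797, minus strand: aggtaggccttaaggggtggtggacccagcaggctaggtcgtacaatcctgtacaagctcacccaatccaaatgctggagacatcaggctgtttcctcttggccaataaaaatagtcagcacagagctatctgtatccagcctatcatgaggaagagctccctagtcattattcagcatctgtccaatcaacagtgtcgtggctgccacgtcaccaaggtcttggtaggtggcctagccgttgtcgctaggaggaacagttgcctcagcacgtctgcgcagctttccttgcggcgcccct
The windows were searched on both strands for the TATA box TATAAA, the AP-1 motif TGANTCA, the cAMP response element TGACGTCA, the letters GAAANNGAA of an interferon response element, and the NF-kappaB consensus. Such a window was given for 568 of the 885 named genes. Of the printed windows, those of Morrbid and Gm5086 held a match, TGAGTCA across the start of Morrbid (its first base at -1) and GAAAGGGAA upstream of Gm5086, and in the others these letters were not present. Among 32851 promoters of all genes, 13.6% held the TATA box, 7.81% the AP-1 motif, 1.79% the cAMP response element, 8.56% the interferon element and 8.46% the NF-kappaB consensus. Among the 62 windows of genes that rose with LPS in every genotype, 11, 4, 3, 7 and 8 held them, in the same order, and among the 56 windows of genes that fell in every genotype, 7, 1, 1, 6 and 4 did.

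Mir22hg, the host gene of miR-22, rose with LPS in every genotype (values below). Its microRNAs are shown with the seed, bases 2 to 8, in capitals. The array probe measures the host transcript and not the mature microRNAs.
mmu-miR-22-5p, chr11:75463734-75463755, plus strand: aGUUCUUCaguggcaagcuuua
mmu-miR-22-3p, chr11:75463772-75463793, plus strand: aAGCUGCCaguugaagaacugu

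LPS changed the level of many non-coding transcript probes in each genotype, in both directions. In wt cells, 333 of 1048 probes changed (limma, adjusted p under 0.05), of which 176 rose and 157 fell. The share was 31.8%, beside 35.3% of all probes, with 17.3% of all probes higher and 18.0% lower. In MK2-/- cells 312 changed, 141 up and 171 down (all probes 36.2%, with 15.2% higher and 21.1% lower). In MK2/3-/- cells 326 changed, 171 up and 155 down (all probes 40.7%, with 19.4% higher and 21.3% lower). The shares were 29.8% in MK2-/- and 31.1% in MK2/3-/- cells, and all 3 lay below these backgrounds, and the median difference in wt was 0.04 for the non-coding probes and 0.05 for all probes on the log2 scale. Protein-coding RefSeq probes changed more often, 42.7% of them in wt. Non-coding probes were often dim, and 501 of 1048 were well above background on all 22 arrays. Of these, 205, or 40.9%, changed in wt, whereas the shares of all and of protein-coding probes given above come from the looser filter. The part of dimness in the lower share was not tested. For 15 probes the signal was above background on LPS arrays only and for 14 on medium arrays only. These passed the filter only through the condition in which they were high, so the filter favoured a change in that direction. Probes given below with a bound in all 3 genotypes are among these. The direction depended on the scaling: with arrays scaled to their 75th percentile, which moved the differences of all probes by a median of 0.35, 0.29 and 0.25 in the 3 genotypes, 296 rose and 128 fell in wt, 202 and 122 in MK2-/-, and 235 and 117 in MK2/3-/- cells. The median difference under that scaling was 0.40, 0.36 and 0.41 for all probes and 0.45, 0.42 and 0.50 for the non-coding probes. The shift towards rises was thus not particular to the non-coding probes.

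Of the non-coding probes, 213 changed with the same sign in all 3 genotypes (all probes 25.0%). Of these, 100 rose (all probes 10.7%) and 113 fell (all probes 14.3%). Another 43 were called in wt alone, 49 in MK2-/- alone and 42 in MK2/3-/- alone. Of all 46263 probes, 1885, 1941 and 3186 were, in the same order. These are counts of calls that do not show a difference between genotypes.

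**Figure D1:**
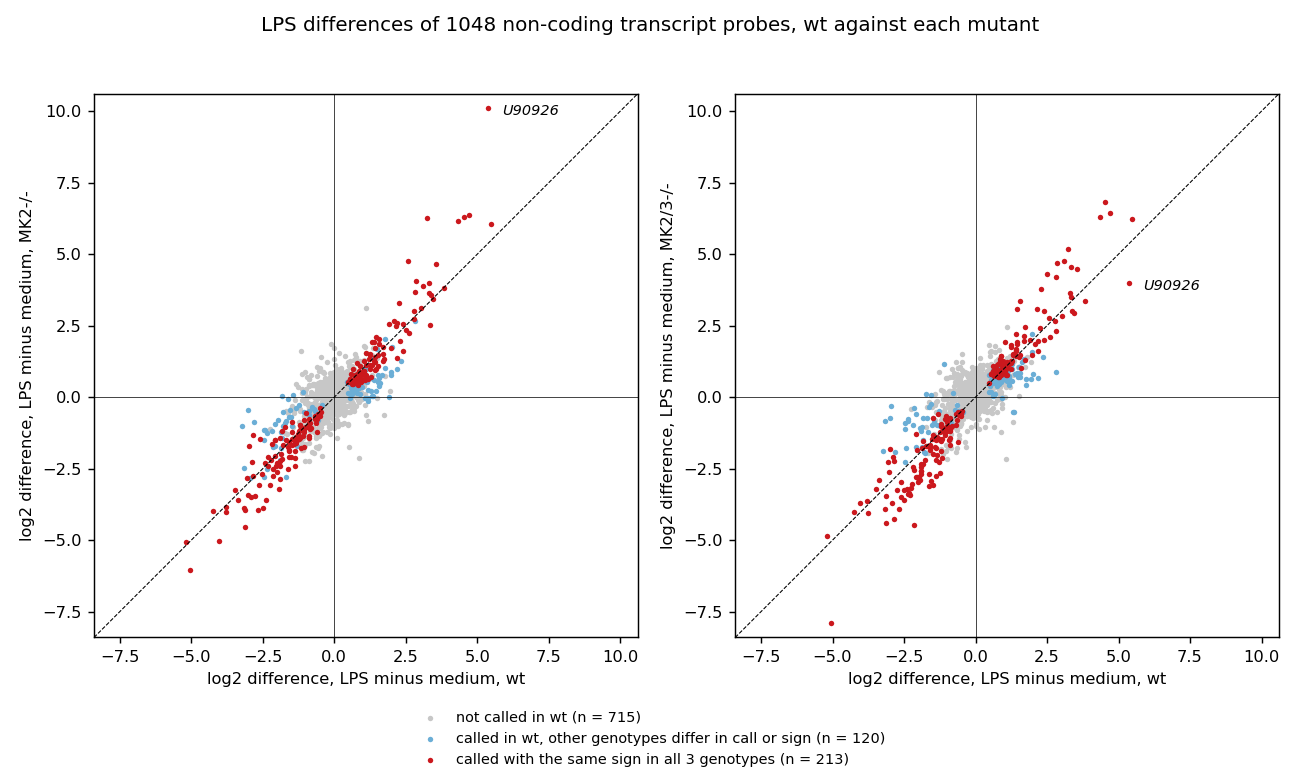
Log2 difference of LPS minus medium in wt (horizontal axis) against MK2-/- (left) and MK2/3-/- cells (right), each point being 1 of 1048 probes. Red points, 213 in number, changed with the same sign in all 3 genotypes, 120 blue ones were called in wt but differed in call or sign elsewhere, and 715 grey ones were not called in wt. U90926 lies far above the diagonal in MK2-/- and below it in MK2/3-/- cells. The wt values are shared by the panels.

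U90926, a lncRNA gene, was among the strongest risers in every genotype and started from a lower level in MK2-/- cells. In wt cells its normalised log2 signal was 6.66, 5.56, 6.72 and 8.83 on the medium arrays and 13.07, 12.39 and 11.45 with LPS. The MK2-/- values were 2.03, 3.46, 3.49 and 2.03 in medium, with no array well above background, and 13.59, 13.63, 12.65 and 11.57 with LPS. In MK2/3-/- cells it was 6.82, 6.73 and 6.86 in medium and 11.03, 11.34, 11.09 and 9.70 with LPS. LPS and medium arrays did not overlap in any genotype, and every MK2-/- medium array lay below every other medium array. The rise on the log2 scale was 5.36 ± 0.66 (SE, adjusted p = 3.64e-06) in wt and 3.99 ± 0.66 (6.63e-05) in MK2/3-/- cells. In MK2-/- cells the rise was at least 585-fold, a bound set by the lowest signal well above background (fitted 10.11 ± 0.61, 2.58e-10), and the fitted rise with normexp was 6.62. These and the other bounds hold for the processed signal only. Under normexp the fitted differences of dim probes were smaller, in several cases below the bound.

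The gene lies nearest to the coding gene Uso1, whose probe gave 0.29 in wt (adjusted p = 0.385) and rose by 0.78 in MK2-/- cells (0.0090). In medium, U90926 was at least 9.69-fold lower in MK2-/- than in wt cells (fitted log2 difference -4.19, limma adjusted p = 0.00111) and at least 8.79-fold lower than in MK2/3-/- cells (fitted difference of MK2/3-/- from MK2-/- 4.05, 0.0013). Under the normexp background correction these calls were lost (adjusted p = 0.0512 and 0.217), with fitted differences of -1.46 and 1.22. With LPS it did not differ between MK2-/- and wt (0.56, 0.605), and was lower in MK2/3-/- than in MK2-/- cells (-2.07, 0.0277), a call lost without MK2-/- LPS replicate 1 (adjusted p = 0.0903) or 2 (0.0880) or MK2/3-/- LPS replicate 4 (0.0904), and under the methods' t-test after adjustment (0.133).

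Gm9895, a lncRNA gene whose nearest coding gene is Ak3, rose in all 3 genotypes. Its signal in wt was 3.95, 2.55, 5.50 and 6.44 in medium and 10.13, 10.57 and 9.53 with LPS. The MK2-/- arrays read 4.41, 3.64, 4.82 and 4.26, and 10.10, 10.95, 10.01 and 10.32. In MK2/3-/- cells it was 2.66, 3.24 and 3.68 in medium, none well above background, and 9.53, 9.67, 9.56 and 8.95 with LPS. All LPS arrays lay above all medium arrays, and with LPS every MK2-/- array lay above every MK2/3-/- array (difference -0.91, adjusted p = 0.302). The rise was 5.46 ± 0.61 (adjusted p = 1.12e-06) in wt, 6.06 ± 0.56 (5.78e-08) in MK2-/- and at least 69.3-fold in MK2/3-/- cells (fitted 6.24 ± 0.61, and 3.27 with normexp). The Ak3 probe moved the other way, by -0.85, -1.02 and -1.61 in the 3 genotypes (adjusted p = 0.00504, 0.0005 and 7.71e-06).

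Morrbid, a lncRNA known for controlling the life span of short-lived myeloid cells through its neighbour Bcl2l11, which encodes the death-promoting protein Bim, also rose. In wt the signal was 6.90, 4.88, 5.04 and 5.78 in medium and 6.28, 10.23 and 10.14 with LPS. It read 2.03, 4.48, 3.65 and 4.41 against 10.05, 9.59, 9.61 and 10.39 in MK2-/- cells, and in MK2/3-/- cells 4.70, 4.07 and 5.31 against 9.48, 10.32, 9.93 and 9.76. The groups did not overlap in either mutant, whereas wt LPS replicate 1 lay among the wt medium arrays. The rise was 3.23 ± 0.76 in wt (adjusted p = 0.00261), 6.26 ± 0.70 (6.97e-07) in MK2-/- and 5.18 ± 0.76 (1.81e-05) in MK2/3-/- cells. In wt the methods' t-test on the same values, after Benjamini-Hochberg adjustment, gave 0.108 (two-sided, not exact). The Bcl2l11 probe rose too, by 2.67, 3.28 and 3.12 (6.37e-08, 7.98e-10 and 4.51e-09).

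Il1bos, transcribed opposite the gene of the cytokine IL-1beta, was at the floor of the scale (values near 2, which have no order) on most medium arrays. In wt it read 1.99, 2.01, 2.04 and 2.54 in medium and 6.40, 6.45 and 6.61 with LPS. Among MK2-/- arrays, those in medium read 6.14, 1.99, 2.01 and 2.03 and those with LPS 10.40, 10.26, 8.31 and 7.88. In MK2/3-/- cells they read 2.66, 1.99 and 1.99, and 9.15, 9.41, 7.24 and 8.24. MK2-/- medium replicate 1 stood apart from the others at a level near that of the wt LPS arrays, and all LPS arrays of the mutants lay above those of wt. The rise was at least 6.54-fold in wt (adjusted p = 0.000403) and at least 41.8-fold in MK2/3-/- cells (4.47e-06), and 6.17 ± 0.76 on the log2 scale in MK2-/- cells (2.28e-06). With normexp the fitted rise in wt was 1.20 in place of 4.34. Under LPS, Il1bos was higher in MK2-/- than in wt by 2.72 ± 0.82 (0.0402), a call lost when wt LPS replicate 1, 2 or 3 (adjusted p = 0.0931, 0.0916 and 0.0892) or MK2-/- LPS replicate 1 or 2 (0.107 and 0.106) was left out and under the methods' t-test after adjustment (0.118), and in MK2/3-/- cells by 2.02 ± 0.82, which did not pass (0.0902).

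Others among the 12 transcripts with the largest rise in wt also rose in the mutants. 4933432I03Rik rose by 4.54 in wt, at least 71.4-fold in MK2-/- and at least 107-fold in MK2/3-/- cells (fitted 3.58 and 3.83 with normexp). Gm18852, a pseudogene, read 4.02, 5.73, 4.63 and 5.52 in wt medium and 9.48, 10.00 and 9.55 with LPS, and rose by 4.70 in wt, at least 50.3-fold in MK2-/- and by 6.43 in MK2/3-/- cells. In medium it was at least 2.77-fold lower in MK2-/- than in wt cells (limma adjusted p = 0.00556), a call lost under normexp (0.187) and under the methods' t-test after adjustment (0.0537). The pseudogene Zfp133-ps rose by 3.83, 3.81 and 3.38 from a high level, while its nearest coding gene Dzank1 fell in wt (-1.70, adjusted p = 0.00114). The intergenic 4932415M13Rik rose by 3.33, 3.98 (at least 12.1-fold) and 4.56, beside the cohesin protector gene Sgo1, which fell (-2.54, -3.65 and -3.51). 4732471J01Rik, overlapping the hormone-sensitive lipase gene Lipe, rose at least 4.24-fold, 11.4-fold and 12.4-fold on the processed signal, and the Lipe probe did not pass (0.49 in wt, adjusted p = 0.136). The smallest fitted rises of 4732471J01Rik over the alternatives were 0.91, 1.60 and 1.31 on the log2 scale.

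**Figure D2:**
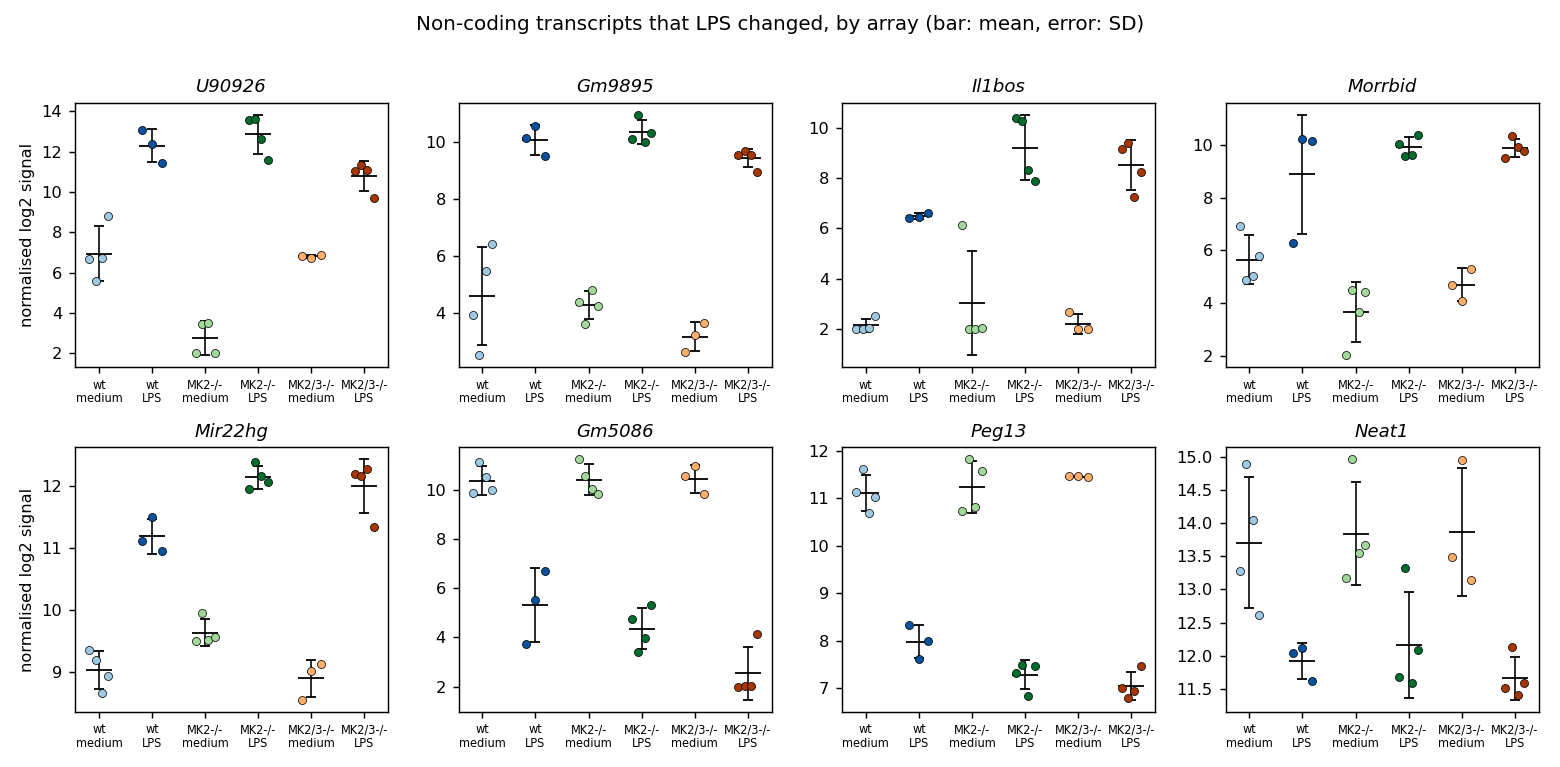
Normalised log2 signal (vertical axis) of 8 non-coding transcripts on each array, with medium arrays in light and LPS arrays in dark colours and 3 to 4 arrays in each of the 6 groups. Bars are means and error bars SD. U90926, Gm9895, Il1bos, Morrbid and Mir22hg were higher and Gm5086, Peg13 and Neat1 lower with LPS. The MK2-/- medium arrays of U90926, at 2.03 to 3.49, lie below all others.

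Some of the transcripts that fell most were above background on no LPS array of a genotype. Gm5086, a lncRNA gene beside Enc1, read 9.87, 11.13, 10.50 and 9.97 in wt medium and 3.71, 5.51 and 6.71 with LPS. On MK2-/- arrays it read 11.23, 10.55, 10.03 and 9.84 against 4.74, 3.40, 3.99 and 5.30. In MK2/3-/- cells it read 10.54, 10.96 and 9.82 against 1.99, 2.02, 2.01 and 4.14, with no LPS array well above background. Medium and LPS arrays were far apart in every genotype. The fall was -5.06 ± 0.64 (adjusted p = 5.57e-06) in wt, -6.06 ± 0.60 (1.21e-07) in MK2-/- and at least 97.4-fold in MK2/3-/- cells (1.17e-08, fitted -4.29 with normexp). Enc1, which encodes an actin-binding protein, fell as well, by 2.96 in wt, 4.33 in MK2-/- and 4.20 in MK2/3-/- cells on the log2 scale.

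5031434O11Rik, which overlaps the methyltransferase gene Setd7, read 7.46, 8.13, 7.93 and 7.94 in wt medium and 2.34, 2.03 and 3.65 with LPS. It was at least 20.3-fold lower with LPS in wt, 16.3-fold in MK2-/- and 13.7-fold in MK2/3-/- cells, since it was above background on no LPS array. It therefore passed the filter through medium arrays alone, where it was high, which favours a fall. With normexp, whose offset shrinks differences of dim probes, the fitted values were -2.03, -1.88 and -1.77 on the log2 scale. The Setd7 probe fell too (-3.42, -4.82 and -4.20). 2610507I01Rik fell by 4.04, 5.03 and 3.68 on the log2 scale, and Rnf227 was at least 12.6-fold, 7.65-fold and 6.85-fold lower on the processed signal. The smallest fitted falls of Rnf227 over the alternatives were -1.42, -1.26 and -1.21. 1810034E14Rik, which overlaps the phosphatase gene Cdc14b, fell by 3.14 in wt and was at least 8.78-fold and 5.77-fold lower in the mutants, where it dropped below background, and Cdc14b fell as well (-1.99, -2.62 and -1.53).

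The nuclear and imprinted lncRNAs, 24 probes of 12 genes, gave 8 lower and 3 higher probes in wt, with 13 not called and a median of -0.17 (all probes 18.0% lower, 17.3% higher and a median of 0.05). Of them 8 fell and 2 rose in all 3 genotypes. Peg13, a lncRNA expressed from the paternal copy, lies within Trappc9 and read 11.12, 11.61, 10.68 and 11.02 in wt medium and 8.32, 7.63 and 7.99 with LPS. In MK2-/- cells it read 10.74, 11.81, 10.81 and 11.57 against 7.33, 7.50, 6.85 and 7.47, and in MK2/3-/- cells 11.46, 11.46 and 11.44 against 7.02, 6.80, 6.94 and 7.48. No LPS array reached a medium array, and the 3 MK2/3-/- medium arrays were nearly equal. The fall was 3.13 in wt, 3.95 in MK2-/- and 4.39 in MK2/3-/- cells (adjusted p = 7.05e-08, 6.73e-10 and 5.85e-10), whereas the Trappc9 probe did not pass (-0.18 in wt, 0.733).

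Kcnq1ot1, the paternally expressed antisense RNA that silences genes around Kcnq1, had a stronger probe that read 7.22, 7.18, 6.99 and 5.86 in wt medium and 5.14, 4.21 and 4.18 with LPS. It fell by 2.30 in wt, 2.40 in MK2-/- and 3.41 in MK2/3-/- cells (limma adjusted p = 0.00195, 0.000527 and 2.96e-05), with no overlap of medium and LPS arrays. The Kcnq1 probe gave -1.14 in wt and did not pass (0.344), and fell by 2.16 in MK2-/- cells (0.0435). Neat1, the scaffold of paraspeckles, read 13.27, 14.89, 14.05 and 12.61 in wt medium and 12.04, 12.11 and 11.61 with LPS. Its fall was 1.78 in wt, 1.67 in MK2-/- and 2.20 in MK2/3-/- cells (0.0147, 0.0125 and 0.00276), and the wt call was lost without wt LPS replicate 3 (0.0608) or wt medium replicate 2 (0.0540), and under the methods' t-test after adjustment (0.0803). Malat1, of the nuclear speckles, read 9.14, 8.76, 9.21 and 8.59 against 8.13, 7.92 and 7.44, and fell by 1.09, 1.35 and 1.21 (0.00547, 0.000379 and 0.00193). Airn, the antisense RNA of Igf2r, gave -0.59 in wt (0.149) and fell only in MK2-/- cells past the threshold (-0.81, 0.0302), with the difference between genotypes far from it (0.946).

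MicroRNA genes and their hosts, 9 probes, had 2 higher, 1 lower and 6 not called in wt and a median of -0.12 (all probes 17.3% higher and 18.0% lower). Mir22hg read 9.35, 9.19, 8.66 and 8.95 in wt medium and 11.12, 11.49 and 10.95 with LPS. For MK2-/- cells the values were 9.51, 9.95, 9.52 and 9.56 against 11.94, 12.38, 12.15 and 12.05, and in MK2/3-/- cells 8.56, 9.02 and 9.12 against 12.19, 12.15, 12.27 and 11.34. The LPS arrays lay above the medium arrays throughout. It rose by 2.15 ± 0.24 in wt, 2.50 ± 0.22 in MK2-/- and 3.08 ± 0.24 in MK2/3-/- cells (limma adjusted p = 1.04e-06, 2.92e-08 and 5.87e-09), and under LPS it was higher than in wt by 0.95 in MK2-/- (0.0178) and 0.80 in MK2/3-/- cells (0.0240). F630028O10Rik, the host of the myeloid microRNA miR-223, fell by 1.48 in wt, 0.88 in MK2-/- and 0.74 in MK2/3-/- cells (0.000537, 0.0141 and 0.0483). Mir9-3hg was at the floor in medium in every genotype, was not well above background on any wt array, and was at least 6.25-fold higher with LPS in MK2/3-/- cells, where 3 of 4 arrays measured it. It thus passed the filter through LPS arrays of the mutants, where it was high, which favours a rise. It was also 1 of the 2 probes called higher in wt, from signals not well above background. Its fitted rise in wt ranged from 0.31 to 2.84 over the alternatives.

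Host genes of small nucleolar RNAs, whose introns yield the guides of ribosomal RNA modification, fell where they passed the test. Of 13 probes, 6 were lower and 0 higher in wt, at a median of -0.87 (7 not called), 5 lower and 0 higher in MK2-/- and 8 lower and 0 higher in MK2/3-/- cells. Among all probes 18.0%, 21.1% and 21.3% were lower and 17.3%, 15.2% and 19.4% higher. Scaling to the 75th percentile moved the differences of all probes by a median of 0.35 in wt, and these falls are relative to the quantile scaling. Snhg12 read 10.69, 10.66, 10.62 and 11.18 in wt medium and 9.15, 8.22 and 9.30 with LPS, a fall of 1.90 (limma adjusted p = 0.00517) with no overlap of the groups. Snhg1, Snhg5 and Snhg7 also fell in all 3 genotypes, by 1.00, 1.68 and 1.28 in wt. Dancr gave -0.95 in wt (0.124) and fell by 1.74 in MK2/3-/- cells (0.00517). The small structured RNAs themselves, 8 probes that include Rnu12 of the minor spliceosome and Terc, the RNA of telomerase, gave no call in wt and a median of 0.04. Rnu3b1 fell in MK2-/- cells (-1.26, 0.0215).

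Of 8 probes for lncRNAs linked to innate immunity, chosen with results of these data known, 4 rose and 0 fell in wt (median 0.91), beside 17.3% and 18.0% of all probes, and U90926, Morrbid and Nron rose in all 3 genotypes (all probes 10.7%). Nron, a repressor of the transcription factor NFAT, rose by 1.04, 0.92 and 0.91 (limma adjusted p = 0.00441, 0.00533 and 0.00901). A probe of Mirt1 rose in wt by 0.85 (0.0440), a weak call that was lost when single arrays were left out, and the other Mirt1 probe gave -0.37 (0.660). That first Mirt1 probe was higher in MK2-/- than in wt cells by 1.48 under LPS (0.00846) and 1.62 in medium (0.00369). Dio3os, from the imprinted locus of the deiodinase Dio3 and picked after its values were seen, did not respond to LPS past the threshold (0.03 in wt, 0.946) and was lower in MK2-/- than in wt cells (-1.46 under LPS, 0.00705, and -1.55 in medium, 0.00262).

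**Figure D3:**
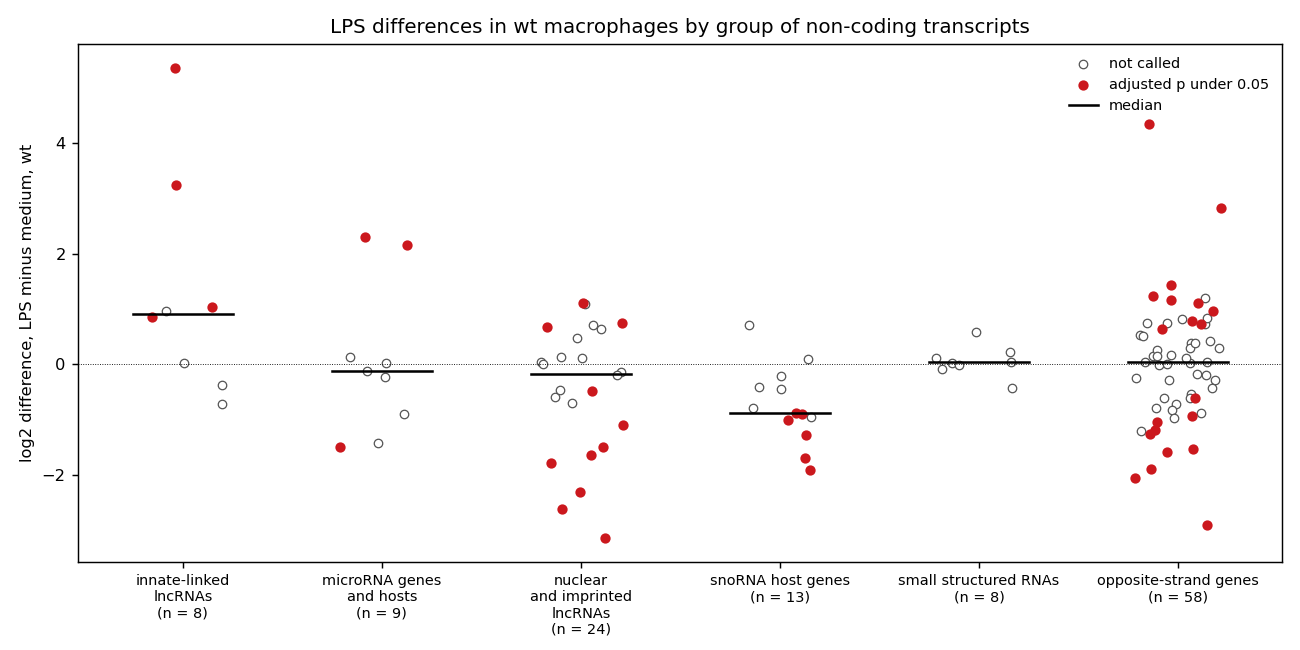
Log2 difference of LPS minus medium in wt (vertical axis) for the probes of 6 groups of non-coding transcripts, each point a probe and each line a median. Filled points passed an adjusted p of 0.05. The snoRNA host genes called lie below 0, at a list median of -0.87, and the small structured RNAs hold no called probe.

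The list of pseudogenes by RefSeq class or by name, 195 probes, held the 193 of the class and 2 more. It split into 29 higher (14.9%) and 40 lower (20.5%) in wt, beside 17.3% and 18.0% of all probes, with 126 not called and a median of 0.14. With the same sign in all 3 genotypes, 14 rose and 29 fell, beside 10.7% and 14.3% of all probes. H2-Q5, in the class I region of the MHC, read 10.03, 10.05, 11.12 and 11.08 in wt medium and 13.72, 13.99 and 13.10 with LPS, and rose by 3.03, 3.11 and 2.85 in the 3 genotypes. Slfn10-ps, of the interferon-inducible Schlafen family and also among the non-coding transcripts of coding genes described next, rose by 2.79, 2.75 and 2.66, and its coding neighbour Slfn8 by 3.74, 3.49 and 3.52. Both belong to families of closely related sequences, so a probe may also read a relative. For 16 pseudogenes the coding parent was measured. In wt, 7 pseudogenes and 7 parents changed (all probes 35.3%). Both were called for 4 pairs, Gpr137b-ps, Stxbp3-ps, Tdg-ps2 and Pdxk-ps, each with the same sign. Cyp4f41-ps, of the cytochrome P450 family, was at least 5.51-fold, 4.72-fold and 2.41-fold lower with LPS on the processed signal. Its smallest fitted falls over the alternatives were -0.96, -0.89 and -0.47 on the log2 scale.

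Non-coding transcripts recorded for genes that otherwise encode protein, 19 probes, had 2 higher and 7 lower in wt (median -0.31), beside 17.3% and 18.0% of all probes. The probe of Runx2, the gene of a transcription factor of bone formation, read 7.35, 5.90, 7.07 and 7.47 in wt medium and 4.52, 3.45 and 4.61 with LPS. It fell by 2.76 in wt (adjusted p = 0.00174) and was at least 6.73-fold and 4.5-fold lower in MK2-/- and MK2/3-/- cells. Prmt6, an arginine methyltransferase gene, fell by 1.50 in wt and 0.96 in MK2/3-/- cells (0.00138 and 0.0239).

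Transcripts opposite a coding gene could be set beside their partner for 47 pairs. In wt, 15 of the non-coding transcripts and 17 of the partners changed (all probes 35.3%). Both changed for Il1bos, Foxd2os, Zfp652os and Smc2os, each with the sign of its partner. Whether these 4 pairs exceed the number that unrelated calls would give was not tested. Il1b rose by 6.75, 8.41 and 7.69 in the 3 genotypes beside Il1bos. Foxd2os, named as one of these 4 after its values were seen, fell by 1.53, 2.10 and 1.45 on the log2 scale (limma adjusted p = 0.000554, 5.18e-06 and 0.00064). Across the 47 pairs, which share arrays, the 2 differences in wt had r = 0.62 and rho = 0.56, given as a description. For 11 pairs the non-coding transcript alone was called, among them Atad3aos, which was at least 3.2-fold lower in wt and reached the floor with LPS in the mutants, and Sox5os3, at least 2.12-fold higher in wt, at the floor in medium. Med9os fell by 2.06 in wt and 1.50 in MK2-/- cells and was at least 2.75-fold lower in MK2/3-/- cells. Zbtb11os1 fell by 1.57, 2.08 and 2.93 in the 3 genotypes.

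**Figure D4:**
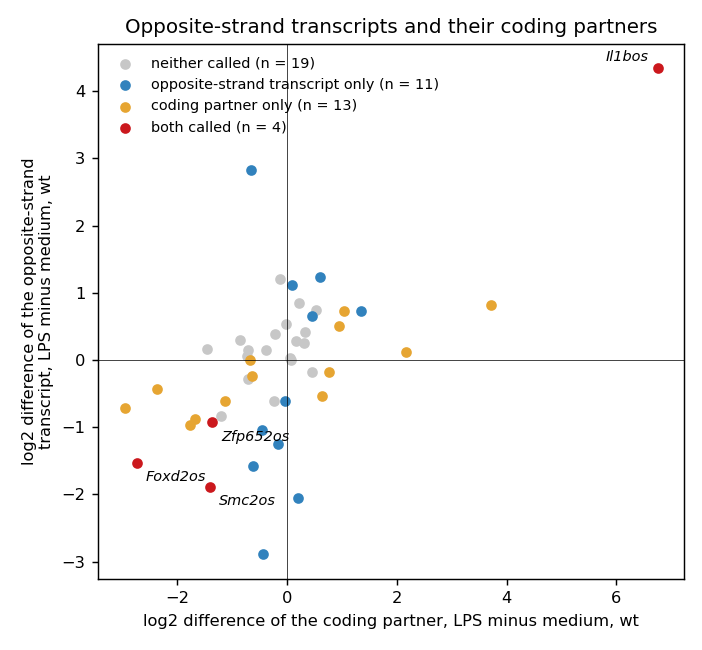
Log2 difference of LPS minus medium in wt for 47 opposite-strand transcripts (vertical axis) and their coding partners (horizontal axis), 1 point a pair. Both were called for the 4 named red pairs, the non-coding transcript alone for 11, the partner alone for 13 and neither for 19. Il1bos and Il1b lie far to the upper right.

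The nearest coding gene was also measured for 762 named transcripts, overlapping ones included. In wt the transcript was called in 239 of these pairs and the neighbour in 349 (35.3% of all probes and 42.7% of protein-coding RefSeq probes were called). Both were called in wt for 119, with the same sign in 88 and opposite signs in 31 (r = 0.25 across the 762 pairs, a description). Whether 119 exceeds the number that unrelated calls would give was not tested. Of 85 transcripts that fell in all 3 genotypes, 39 neighbours, or 45.9%, fell and 6 rose. Of 67 that rose in all 3, 19 neighbours rose and 13 fell. Beside 523 transcripts not called in wt, 23.1% of the neighbours rose and 20.8% fell.

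A single non-coding transcript was called in the tests of whether the size of the LPS response differed between genotypes. That call did not hold in all alternatives. The lack of other calls does not show that the other responses were equal. The test of the difference between LPS responses called 0 of 1048 probes between MK2-/- and wt (all probes 0%) and 0 between MK2/3-/- and wt (all probes 0.275%, of which 0.0540% higher), with 55 and 57 at an unadjusted p under 0.05, by limma. The methods' t-test could not be run for these differences. Between MK2/3-/- and MK2-/- cells it called 1 (all probes 0.0195%, with 0.0108% higher and 0.00865% lower), with 61 at an unadjusted p under 0.05. This was U90926, whose rise differed from that of MK2-/- cells by -6.12 ± 0.90 (SE) on the log2 scale in MK2/3-/- cells (adjusted p = 0.0162). Since its MK2-/- medium arrays were not well above background, the fold in MK2-/- was at least 36.9 times that in MK2/3-/- cells. Against wt its rise was larger in MK2-/- by 4.75 ± 0.90, which did not pass (0.142), and the difference of MK2/3-/- from wt was -1.37 (0.766). The call did not hold under normexp (-3.27, adjusted p = 0.0747) or without MK2-/- LPS replicate 2 (0.0596), MK2/3-/- medium replicate 2 (0.0734) or MK2/3-/- medium replicate 3 (0.0667), and held in 26 of 30 alternatives. Only a slide effect that is additive on the log2 scale would cancel in this comparison. Whether it was additive for the MK2-/- medium arrays of U90926 was not tested. Without both MK2-/- arrays of replicate 3, 3 probes were called between the mutants and 1 between MK2-/- and wt.

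At a given condition, more non-coding transcripts were called between genotypes, and these differences cannot be told apart from those between slides. Under LPS, 129 probes differed between MK2-/- and wt (all probes 11.5%), 72 higher and 57 lower in MK2-/- (all probes 5.09% and 6.41%). Between MK2/3-/- and wt 165 differed (all probes 20.1%), 105 higher and 60 lower (9.88% and 10.3%), and between MK2/3-/- and MK2-/- 180 (all probes 15.1%), 118 higher and 62 lower (9.55% and 5.57%). In medium the counts were 134 (all probes 11.3%), 30 (all probes 2.68%) and 56 (all probes 4.35%), with 89 and 45 (7.42% and 3.88%), 24 and 6 (1.95% and 0.728%), and 36 and 20 (2.82% and 1.53%) higher and lower. With scaling to the 75th percentile, which moved the differences of all probes by a median of 0.41, 0.54 and 0.09 under LPS and by 0.46, 0.57 and 0.09 in medium, the split became 214 higher and 31 lower, 328 and 36, and 106 and 14 under LPS, and 303 and 23, 305 and 8, and 41 and 7 in medium. Under that scaling the median difference of all probes was 0.20, 0.40 and 0.02 under LPS and 0.24, 0.36 and 0.02 in medium. That of the non-coding probes was 0.43, 0.70 and 0.10, and 0.52, 0.67 and 0.06. Differences with the same sign in both conditions numbered 57 between MK2-/- and wt (all probes 4.22%), 19 between MK2/3-/- and wt (all probes 1.86%) and 45 between the mutants (all probes 3.27%).

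Single arrays weighed on these counts. Without wt LPS replicate 2 or 3, 71 or 67 probes differed between MK2-/- and wt under LPS, and without MK2-/- LPS replicate 1 or 2, 69 or 68. In medium the same comparison gave 68 or 81 without wt replicate 1 or 4 and 84 or 62 without MK2-/- replicate 1 or 2. Between MK2/3-/- and wt, 106 were called under LPS without wt LPS replicate 3, and in medium 6, 9, 17 and 10 without wt replicates 1 to 4, 1, 14 and 5 without MK2/3-/- replicates 1 to 3, 50 without MK2-/- medium replicate 2 and 52 without MK2/3-/- LPS replicate 3. Between the mutants, 116 were called under LPS without MK2-/- LPS replicate 1, and 31, 32 and 32 in medium without MK2/3-/- replicates 1 to 3.

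4930515G16Rik was lower in MK2-/- than in both other genotypes, with or without LPS. It read 6.14, 5.51, 5.89 and 6.29 in wt medium, 4.09, 4.01, 4.41 and 3.40 in MK2-/- and 6.70, 6.23 and 6.42 in MK2/3-/- medium. With LPS it read 7.24, 7.39 and 7.80 in wt, 5.57, 5.00, 4.64 and 5.00 in MK2-/- and 7.68, 7.94, 7.88 and 7.86 in MK2/3-/- cells. In each condition the MK2-/- arrays lay below all others, and wt and MK2/3-/- arrays overlapped or nearly met. MK2-/- differed from wt by -2.43 ± 0.25 under LPS (adjusted p = 4.24e-05) and -1.98 ± 0.23 in medium (0.000258), and from MK2/3-/- by 2.79 and 2.48 the other way, while MK2/3-/- did not differ from wt past the threshold (0.36, 0.326, and 0.50, 0.300). It rose with LPS in every genotype, by 1.52, 1.08 and 1.39.

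4933433H22Rik, beside the RNA-binding protein gene Zfp36l2, read 7.13, 5.91, 7.30 and 7.22 in wt medium, 5.41, 5.14, 5.52 and 4.34 in MK2-/- and 8.56, 7.64 and 8.34 in MK2/3-/- medium. With LPS it read 7.62, 7.22 and 7.55, 6.17, 5.14, 5.88 and 5.99, and 8.83, 8.51, 8.64 and 8.81. The 3 genotypes were in the same order in both conditions, without overlap. MK2/3-/- exceeded MK2-/- by 3.07 ± 0.34 in medium (limma adjusted p = 6.93e-05) and 2.90 ± 0.32 under LPS (9.02e-06), and LPS made no difference that passed in any genotype. Zfp36l2 itself fell with LPS by 3.59, 4.20 and 4.82 on the log2 scale.

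Gm5039 read 6.79, 6.82, 6.19 and 6.79 in wt medium, 3.45, 2.34, 4.66 and 4.93 in MK2-/- and 6.21, 6.61 and 5.70 in MK2/3-/- medium. With LPS it read 8.54, 8.62 and 9.01, 6.53, 6.51, 6.06 and 6.92, and 8.01, 9.30, 7.07 and 7.80. The MK2-/- arrays were the lowest in each condition. Compared with wt, MK2-/- cells differed by a fitted -2.22 ± 0.51 under LPS (limma adjusted p = 0.0122) and -2.80 ± 0.48 in medium (0.00254), and with normexp the latter was -0.97 and with the methods' t-test after adjustment its p was 0.0535. Gm6787 was lower in MK2-/- (-2.50 ± 0.41, 0.0018, and 0.0598 by that t-test) and in MK2/3-/- cells (-1.40 ± 0.41, 0.0227) than in wt under LPS. 4930563M20Rik was above background on no MK2-/- array and at least 6.14-fold higher in MK2/3-/- than in MK2-/- cells under LPS on the processed signal (9.59e-05). The smallest fitted difference over the alternatives was 0.98 on the log2 scale.

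Other transcripts were higher in the mutants. F930015N05Rik, which overlaps the heparan sulfate enzyme gene Hs3st3a1, read 6.29, 5.91, 5.73 and 6.50 in wt medium and 6.97, 7.84 and 7.83 with LPS. In MK2-/- cells it read 7.26, 7.34, 7.39 and 6.82 and then 8.64, 9.03, 8.93 and 9.13, and in MK2/3-/- cells 8.10, 6.63 and 6.71 and then 10.66, 10.09, 9.88 and 10.29. Under LPS the 3 genotypes did not overlap, with wt lowest and MK2/3-/- highest. MK2/3-/- exceeded wt by 2.68 ± 0.32 (limma adjusted p = 6.94e-05, and 0.0570 by the methods' t-test after adjustment, which called 0 members in this comparison) and MK2-/- by 1.30 ± 0.30 (0.00606), and the LPS rise of 1.44 in wt, 1.73 in MK2-/- and 3.08 in MK2/3-/- cells did not differ between MK2/3-/- and wt past the threshold (1.64, 0.135). Hs3st3a1 rose with LPS by 2.71, 3.83 and 5.69.

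4932412D23Rik, which overlaps the transcription factor gene Zbtb20, read 8.72, 9.03, 9.19 and 8.76 in wt medium, 11.67, 12.00, 9.86 and 10.85 in MK2-/- and 11.32, 11.05 and 11.46 in MK2/3-/- medium. Every mutant array lay above the wt arrays, and the differences were 2.17 ± 0.38 (adjusted p = 0.00288, and 0.0560 by the methods' t-test) and 2.36 ± 0.41 (0.00879, and 0.0602 without MK2/3-/- medium replicate 1). Its other probe read 8.83, 9.27, 8.94 and 9.18 in wt medium, 8.68, 10.12, 9.05 and 8.89 in MK2-/- and 9.94, 10.32 and 10.36 in MK2/3-/- medium, so that it too was higher in MK2/3-/- but overlapped wt in MK2-/- cells. 1700091H14Rik was higher than in wt under LPS by 1.70 in both mutants (0.00411 and 0.00158), AU015836 by 1.59 and 1.85 (0.00337 and 0.000432). Each of these genes has further probes on the array, and the differences of 1700091H14Rik and AU015836 are those of the named probe alone.

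**Figure D5:**
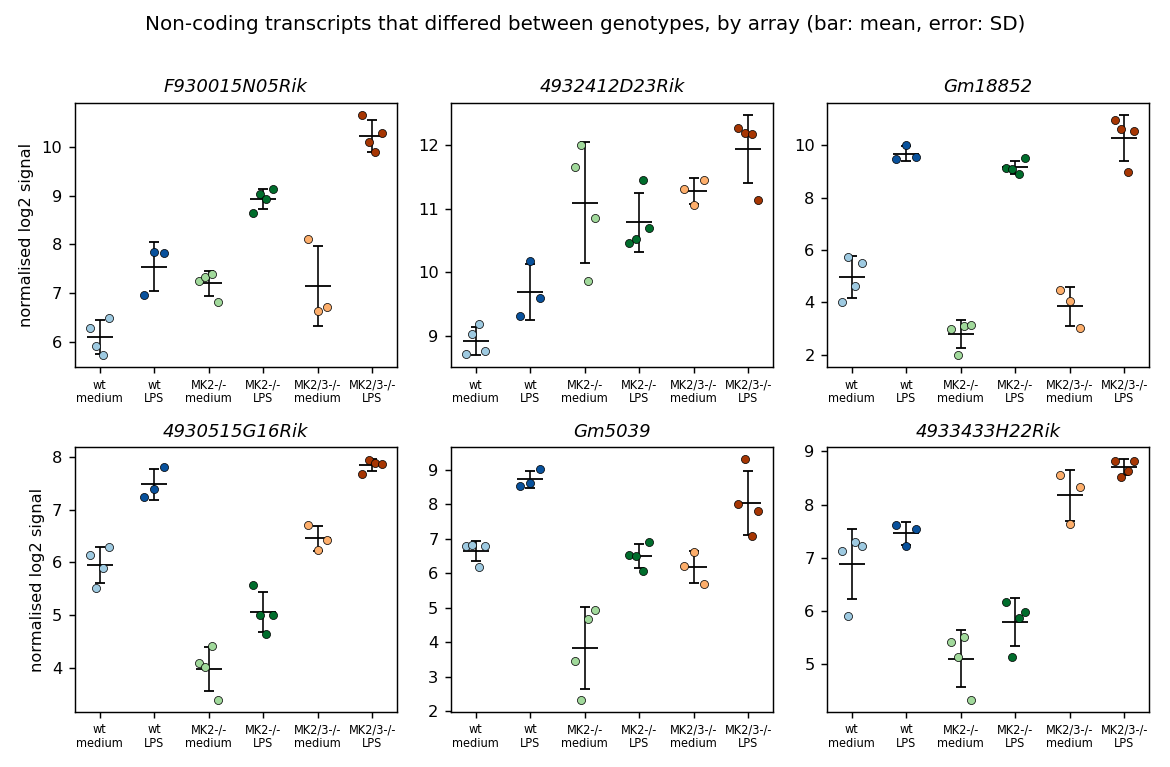
Normalised log2 signal (vertical axis) of 6 non-coding transcripts on each array in the 6 groups, with medium in light and LPS in dark colours, bars for means and error bars for SD. F930015N05Rik is highest in MK2/3-/- cells with LPS, at 9.88 to 10.66. The MK2-/- arrays of 4930515G16Rik, Gm5039 and 4933433H22Rik lie below the wt and MK2/3-/- arrays of the same condition.

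Xist, the RNA that coats the inactive X chromosome in female cells, was expressed on few arrays. The probe kept for naming read 7.78 in medium and 7.66 with LPS on the MK2-/- arrays of replicate 3, and at most 5.79 elsewhere. The other Xist probe read 9.12 and 8.18 on these arrays, 5.37 on MK2-/- medium replicate 4 and values at the floor on the rest. The difference of MK2-/- from wt in medium, at least 2.6-fold as no wt array was well above background (limma adjusted p = 0.0469), was called in 14 of 32 alternatives. Without MK2-/- medium replicate 3, which went against its label of male, the fitted log2 difference was 1.82 (limma adjusted p = 0.139). The call was also lost without MK2-/- medium replicate 1 or 2, with fitted differences of 2.93 and 2.88.

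Several probes measured the same gene for 79 symbols. For 18 of these at least 2 probes were called in wt, with opposite signs for 2. In the nuclear and imprinted list the probes of Norad, Tug1, Pvt1, Meg3 and Ftx differed in their calls, and values above are those of the named probe. Probes just inside the filter, on exactly 3 arrays, numbered 37 with a median highest log2 signal of 5.11, and 61 probes were just outside, on exactly 2 arrays, with 4.97. A further 172 NR_ probes were well above background on no array.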

How the data were processed

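RNA of 22 macrophage samples was hybridised to Agilent 8x60K mouse arrays in 1 colour (Cy3), and the authors deposited each array's scanner output with the processed signal, a linear intensity, written by Feature Extraction 11.0.1.1. A table of log2 values that the authors deposited, quantile normalised and centred per probe, served as an alternative. No depth exists for arrays, and the number of arrays limits the precision. Control spots were left out, spots of a probe averaged, and the log2 processed signals quantile normalised over the 22 arrays. The 46263 of 55681 probes that passed the background flag on 3 arrays or more were fitted in limma 3.58.1 (R 4.3.3) with the 6 groups sharing 1 estimate of the spread, and p-values were adjusted over all of them by Benjamini-Hochberg in each of 12 comparisons, at a threshold of 0.05. Spots the scanner software marked as outliers were treated as missing, and the fit of such a probe used the other arrays. Where no array of a group was well above background, a fold is given as a bound against the lowest signal well above background. That signal is the lowest of any probe on the array, and the bound takes in no sampling error and holds for the processed signal only. The study's methods name a two-sample Student's t-test (the methods' t-test), run as an alternative. Names came from the RefSeq table (984 of 1048 probes matched), as did promoters and microRNAs (GRCm38.p6). The named transcripts were the 12 with the largest rise and the 12 with the largest fall in wt among those called with the same sign in every genotype, up to 6 called ones in each direction for each comparison of genotypes or of responses, and up to 6 of each list by the size of the change in wt, called or not, with the brightest probe of each symbol. The members and lists were chosen with earlier results of these data known. The code was tested on simulated data. The labels give separate samples, and replicates differed by a median of at least 0.260 on the log2 scale over all probes, so none was deposited more than once.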

Additional observations from a re-analysis of the deposited data

Results flagged for a closer look

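In groups of 4 arrays, a sample was singled out when it lay far from the other 3 relative to the range of the group. Among 29 transcripts in 116 groups this happened 17 times, and chance alone flags about 1 in 20 groups. Among the medium arrays of wt, replicate 4 stood apart for 4933432I03Rik (5.53), Il1bos (2.54, near the floor) and Snhg12 (11.18), replicate 2 for 4933433H22Rik (5.91) and Slfn10-ps (11.93), and replicate 3 for Gm5039 (6.19) and Xist (3.57). Among the MK2-/- medium arrays, replicate 2 stood apart for 2610507I01Rik (8.34), Gm18852 (1.99), Mir22hg (9.95) and Snhg1 (8.68), and replicate 1 for Il1bos (6.14). Under LPS, MK2-/- replicate 2 stood apart for 4930563M20Rik (2.01, at the floor with the other arrays, so that the gap has no order) and replicate 3 for Snhg12 (7.24). MK2/3-/- LPS replicate 4 stood apart for 4932412D23Rik (11.13), Gm5086 (4.14) and Mir22hg (11.34). All are log2 signals.

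The LPS response of U90926 differed between MK2/3-/- and MK2-/- cells by -6.12 on the log2 scale, by the test of that difference. The call held in 26 of 30 alternatives.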

How the results depend on the processing

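The counts of members changed with LPS stayed within 1.5 times of the reported ones under all alternatives run, at 224 to 424 in wt, 222 to 379 in MK2-/- and 240 to 358 in MK2/3-/- cells. Differences between genotypes depended more on the processing, and the cause was not tested except that fewer probes or arrays enter some of them. Scaling to the 75th percentile gave 245 members for MK2-/- and 364 for MK2/3-/- against wt under LPS, and 326 and 313 in medium. Keeping probes above background on all arrays gave 59 for MK2-/- against wt and 67 between the mutants under LPS, 75 and 15 in medium, and 0 for the interaction between the mutants. U90926, the member called in the main fit, does not pass that filter, so its loss there was fixed in advance. Normexp (on the median signals) gave 33 between the mutants in medium, and 1 and 0 for the interactions of MK2/3-/- with wt and with MK2-/-. The authors' table gave 19 for MK2/3-/- against wt in medium. The methods' t-test at the unadjusted threshold gave 259 for MK2-/- against wt under LPS, and 329, 262 and 210 in medium for MK2-/- against wt, MK2/3-/- against wt and between the mutants. After Benjamini-Hochberg it gave 31, 0 and 51 under LPS, in the same order, and 75 and 34 in medium for MK2-/- against wt and between the mutants. Adjusting over the RefSeq probes alone gave 1 for the interaction of MK2/3-/- with wt. Leaving out both MK2-/- arrays of replicate 3, chosen after seeing the data, gave 1 and 3 for the interactions of MK2-/- with wt and between the mutants. The t-tests could not be run for interactions.

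Leaving out single arrays gave 67 to 161, 106 to 173 and 116 to 193 members under LPS for MK2-/- against wt, MK2/3-/- against wt and between the mutants, and 62 to 173, 1 to 52 and 31 to 69 in medium. The interactions gave 0 to 4 for MK2/3-/- with wt and 0 to 1 between the mutants. Frs3os, lower in MK2/3-/- than in wt in medium (-0.88), turned to 0.17 with the 75th percentile.

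Whether LPS and medium samples came in pairs could not be settled, and the main fit did not pair them. Of 10 same-numbered pairs, 5 had a correlation of deviations over 0.1 (-0.14 to 0.28). Letters in the authors' array names matched LPS and medium arrays of equal age. Of 10 same-letter pairs, 4 exceeded 0.1 (-0.14 to 0.34), beside 5 of 30 pairs of unlike letter. With the replicate number as a block (consensus correlation 0.0946) 348, 329 and 358 members changed with LPS in the 3 genotypes, and all 171 named results kept their direction and call. With the letter as a block (0.110), 170 of the 171 kept both.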
